A study of Bos taurus with 4 samples.

Results

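The genes described here are homeobox, SOX, forkhead, T-box, KLF and GATA transcription factors, a set of developmental regulators read in bovine cleavage embryos. Members were taken by symbol: RefSeq accessions of the deposited table were paired with bovine symbols, and those starting with HOX, POU, SOX, FOX, GATA, LHX, PAX, TBX, KLF, DLX, MSX, NKX, OTX, MEIS, PBX or HAND were kept, together with SIX2, SIX3, SIX5 and SIX6. POU5F1, SOX2, KLF4, GATA3, POU3F2 and the thromboxane genes TBXA2R and TBXAS1 were left out. This gave 125 genes of the 14002 with a symbol, each with 1 NM transcript, in 17 families. The start of a symbol also admits 4 genes that do not encode a factor of the family: FOXRED1 and FOXRED2, which encode oxidoreductases, PBXIP1, whose product binds PBX proteins, and POU2AF1, a coactivator of POU factors.

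Polyadenylated RNA was sequenced from Bos taurus embryos with 8 to 16 cells, collected 3 days after insemination. Zygotes had been injected with negative control siRNAs (NC, n = 2 libraries) or with siRNAs against the histone demethylases KDM5A, KDM5B and KDM5C (KDM5_KD, n = 2 libraries), so all embryos had been injected. The treatment entry of KDM5_KD replicate 2 names KDM6 instead of KDM5. The labels do not say how many embryos went into a library or whether the libraries of a group came from separate collections, so p-values measure only the spread between these libraries, which may be technical.

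Homeobox proteins bind DNA through a homeodomain, SOX proteins through an HMG box, forkhead proteins through a winged helix, T-box proteins through the T-box domain, and KLF and GATA proteins through zinc fingers. HAND1 is a basic helix-loop-helix factor. Many of these genes pattern the axes, the nervous system, the heart and the limbs after gastrulation, while a few, such as GATA2, KLF5, OTX2 and SOX15, are also known from the trophoblast or from pluripotent cells. In embryonic stem cells many silent genes of these families are bound by Polycomb proteins and carry trimethylation of lysine 4 and of lysine 27 of histone H3 together. KDM5 enzymes remove the former mark, and the comparison asks which of these genes differ in RNA level when KDM5 genes are knocked down.

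The values are FPKM, fragments scaled to transcript length and to sequencing depth, which allow levels to be compared between genes. The FPKM of all transcripts summed to between 283347 and 322267 per library, and read counts are unknown. KDM5A had 28.4 and 27.1 FPKM in NC and 10.5 and 10.1 FPKM in KDM5_KD, and KDM5C was at 28.1 and 40.6 against 15.1 and 17.8 FPKM. These 2 targets were thus lower in each knockdown library, the one with the disputed entry included, and KDM5B was not analysed here. In the limma test used below, KDM5A passed with an adjusted p of 0.0333. KDM5C, at 47.9% of its NC mean, did not pass, with a limma adjusted p of 0.123. A targeted gene near 2-fold lower was therefore not called, which limits what an absence of calls can show. Each of 9 oocyte and cleavage embryo marker genes found in the table, ZP2, ZP3, BMP15 and DPPA3 among them, had a mean above 1 FPKM, and their transcripts summed to between 328 and 561 FPKM per library. Sperm markers were near 0, with sums between 0.843 and 1.52 FPKM.

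None of the 125 genes was listed at 0 in all 4 libraries, and 10 were at 0 in at least 1. A mean of at least 1 FPKM over all libraries was required for testing. It was met by 79 members (63.2%, against 61.8% of all transcripts), of which 24 had a mean of at least 10 FPKM. Of all members 19.2% reached that level, against 31.6% of all transcripts. Among tested transcripts the median level was 4.56 FPKM for members and 10.5 FPKM for all. These factors were therefore mostly detected at low levels, with a small group of abundant ones.

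OTX1, a homeobox gene known from forebrain and sense organ development, had the highest mean. It had 133 and 82.3 FPKM in NC replicates 1 and 2 and 113 and 87.5 FPKM in KDM5_KD replicates 1 and 2, so the groups overlapped. KLF3, which encodes a transcriptional repressor, was at 111 and 92.9 FPKM in NC and 96.2 and 92.5 FPKM in KDM5_KD. KLF10, a TGF-beta inducible repressor gene, was at 88.6 and 89.6 against 101 and 72.2 FPKM. The groups of all 3 overlapped. SOX15, the most abundant SOX gene among the members, had 62.3 and 71.1 FPKM in NC and 72.0 and 73.3 FPKM in KDM5_KD. These last groups did not overlap, but the margin was under 1 FPKM and the difference on the log2 scale was only 0.12, with SE 0.123 and a limma adjusted p of 0.654. The forkhead gene FOXP4 came next, with 88.0 and 58.6 against 64.9 and 60.7 FPKM. Neighbours in this order of means had overlapping ranges over the 4 libraries, so the order itself is not firm.

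MSX1, a homeobox gene that responds to BMP signals, was one of these 6 abundant members and the one that varied most between libraries. Its values were 62.9 and 33.9 FPKM in NC and 53.6 and 111 FPKM in KDM5_KD, so only KDM5_KD replicate 2 stood above the controls. GATA2, a trophoblast and blood factor, had the same arrangement, with 20.1 and 15.5 FPKM in NC and 18.9 and 39.9 FPKM in KDM5_KD. The log2 fold changes of both genes, 0.73 and 0.61, had limma adjusted p of 0.415 and 0.417. Without KDM5_KD replicate 2, the library with the disputed entry, they were 0.21 and 0.09.

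The other families were led by genes whose groups mostly overlapped. PAX9, known from tooth and thymus development, had 56.8 and 43.5 FPKM in NC and 51.5 and 46.2 FPKM in KDM5_KD. NKX2-8 had 50.6 and 28.2 against 37.4 and 27.7 FPKM, and POU3F1, a factor of myelinating Schwann cells, had 39.0 and 22.4 against 32.1 and 19.0 FPKM. In all 3 genes the libraries numbered 1 were above those numbered 2, in both groups. PBX2, a cofactor of HOX proteins, had 15.0 and 21.4 against 21.3 and 32.7 FPKM. HOXC13, a regulator of hair keratin genes, had 15.3 and 14.5 against 13.1 and 15.1 FPKM. LHX2, a LIM homeobox gene of the forebrain, had 13.9 and 8.28 against 12.4 and 11.3 FPKM, and SIX5 had 13.7 and 7.69 against 11.4 and 8.08 FPKM. The groups overlapped in all 7 genes, and the limma adjusted p were 0.348 or more. The lead genes of the 4 remaining families were low: TBX5, a heart and forelimb factor, had 4.33 and 3.78 against 6.24 and 4.68 FPKM. DLX2 had 2.84 and 2.55 against 3.90 and 2.57 FPKM, and MEIS1, another partner of HOX proteins, had 1.55 and 1.23 against 1.42 and 1.63 FPKM. HAND1 is described with the largest differences.

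**Figure D1:**
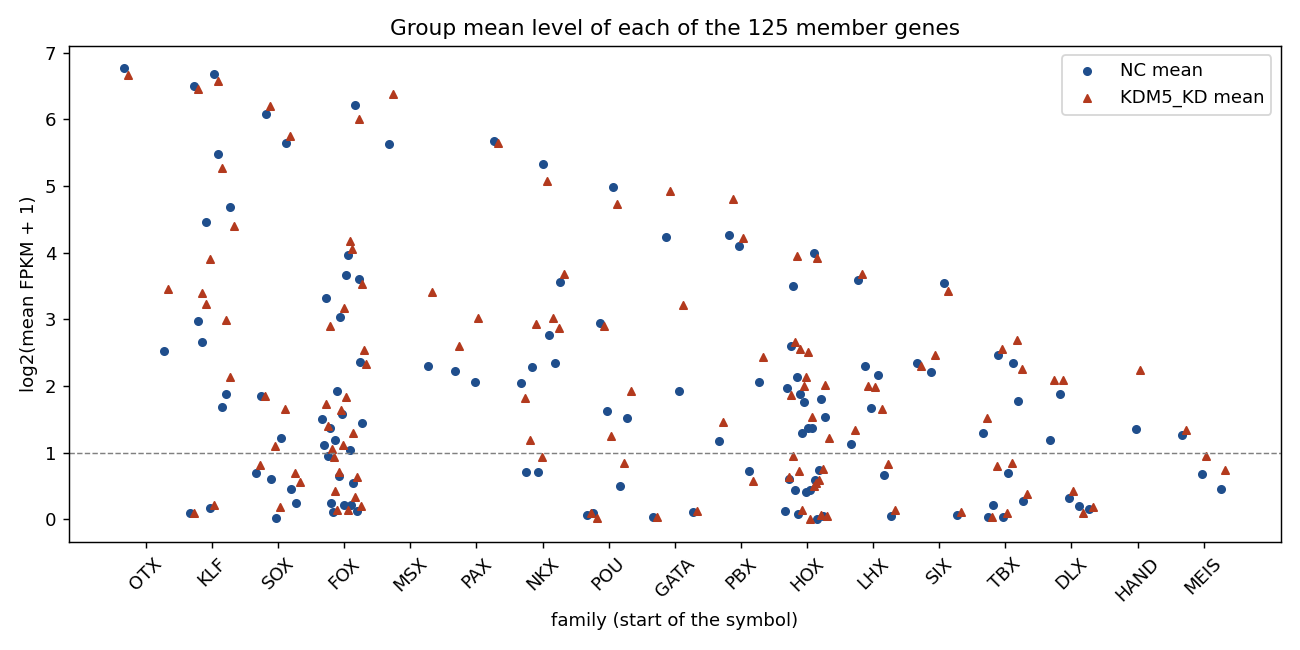
Group mean of each of the 125 genes in NC (circles) and KDM5_KD (triangles) as log2(mean FPKM + 1), by family in order of the highest member. The dashed line marks 1 FPKM, and the OTX, KLF, SOX, FOX and MSX families hold the 6 most abundant genes.

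Differences between the groups were tested with limma on log2(FPKM + 1) over all 8970 transcripts with a mean of at least 1 FPKM. No member passed a limma adjusted p of 0.05. Of all transcripts 0.19% passed as higher and 0.0892% as lower in the knockdown, or 0.279% together. At an unadjusted p under 0.05 there were 12 members (15.2%), against 17.5% of all transcripts. The smallest limma adjusted p of any member was 0.106. The absence of calls therefore does not set these genes apart from the table as a whole.

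Both knockdown libraries lay above both NC libraries for 29 of the 79 tested members (36.7%), and for 35.1% of all transcripts. They lay below for 8 members (10.1%), and for 15.6% of all transcripts. After quantile normalization, which moved the median of all transcripts from 0.09 to -0.05, the counts were 11 above and 18 below, with 20.7% and 28.3% of all transcripts. The surplus of members above the controls thus depends on how the libraries are scaled. At least 2-fold higher on the log2(FPKM + 1) scale, which understates the change of low genes, were 4 members, GATA4, KLF6, MSX2 and FOXS1 (5.06%), against 4.52% of all transcripts. None was 2-fold lower, where 0.301% of all transcripts were. The median log2 fold change was 0.20 for members and 0.09 for all transcripts. These shares are near those of the table, and nothing particular to the members is read from them.

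The share above the controls also varied with the level of expression. When all tested transcripts were divided by mean FPKM into 4 bins of equal size, a division chosen after the data were seen, 12 of the 33 members in the lowest bin (36.4%) had both knockdown libraries above both controls, against 48.0% of all transcripts there. In the second bin, from 3.71 to 10.5 FPKM, it was 14 of 23 members (60.9%), against 40.6%. In the third it was 2 of 13 and in the highest 1 of 10, against 30.8% and 21.0%. GATA4, KLF6, MSX2, PAX6 and OTX2 all lie in the second bin. The mean FPKM was taken over all 4 libraries, so an increase after knockdown can itself move a gene up a bin. GATA4, KLF6 and PAX6 had NC means of 2.78, 2.21 and 3.15 FPKM, below the second bin. MSX2 and OTX2 had NC means of 3.94 and 4.76 FPKM, within it. The shares by bin are to be read with that limit, and no share was tested.

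**Figure D2:**
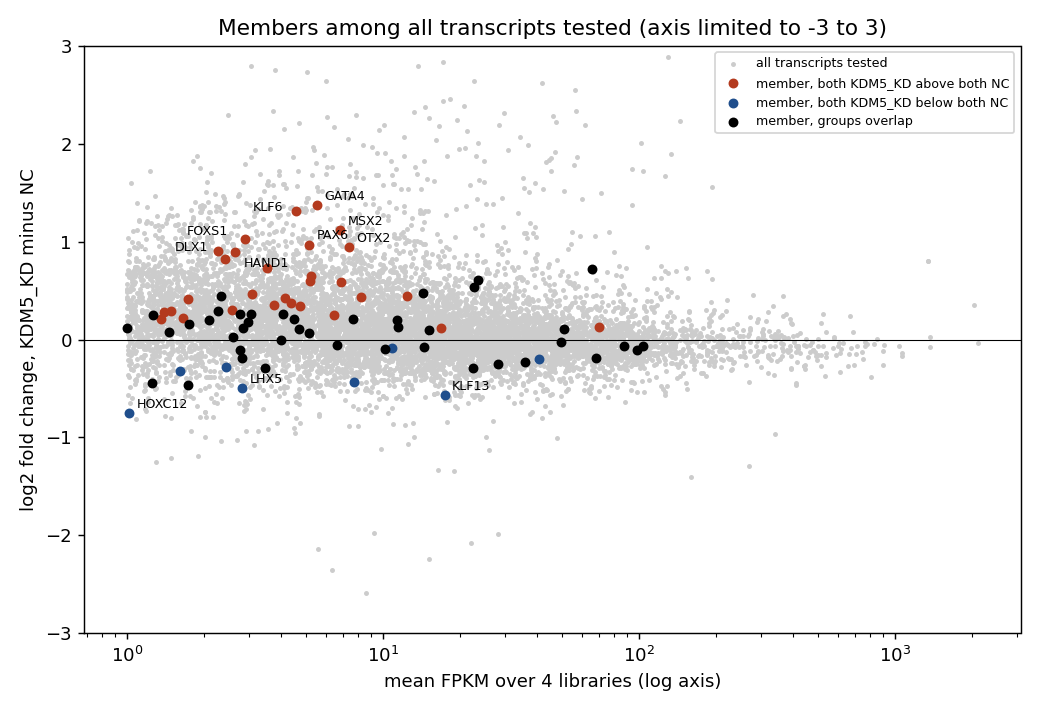
Log2 fold change (KDM5_KD minus NC, on log2(FPKM + 1)) against mean FPKM for all transcripts tested (grey) and members (coloured by whether the groups overlap). The labelled increases lie between 2 and 8 FPKM within the grey cloud, and 14 transcripts lie beyond the vertical limits.

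The 8 members with the largest increases on the log2 scale belong to 8 different families. GATA4, a factor of endoderm, heart and gonad that is also known from granulosa cells, had 4.02 and 1.55 FPKM in the controls and 9.25 and 7.39 FPKM after knockdown. KLF6, a widely expressed early response factor, was at 2.75 and 1.66 against 6.17 and 7.66 FPKM. In both genes each knockdown library was above either control, and NC replicate 2 was the lowest. The log2 fold changes were 1.37 (SE 0.346, with a limma adjusted p of 0.153) and 1.32 (SE 0.248, with a limma adjusted p of 0.107). These are the 2 genes whose call depends on a library: without NC replicate 1 they reached 1.86 and 1.56, with limma adjusted p of 0.0248 and 0.0403, in a fit where 3.79% of all transcripts passed. Without NC replicate 2 they dropped to 0.89 and 1.07, and the limma adjusted p were 0.259 and 0.204. In bulk samples of this kind more expression per cell and more cells expressing a gene cannot be told apart.

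MSX2, a BMP-responsive homeobox gene and paralogue of MSX1, had 4.38 and 3.49 FPKM in the controls and 9.31 and 10.04 FPKM after knockdown. Unlike in MSX1, both knockdown libraries were about level, and the log2 fold change of 1.12 (SE 0.194, with a limma adjusted p of 0.106) was 1.07 without KDM5_KD replicate 2. PAX6, a regulator of eye and forebrain, was at 2.94 and 3.37 against 7.70 and 6.58 FPKM. OTX2, which acts in the anterior neural plate and at the exit from naive pluripotency, was at 4.15 and 5.38 against 9.82 and 10.2 FPKM. In these 3 genes the libraries of a group lay closer together than the groups did. The log2 fold changes of PAX6 and OTX2 were 0.97 (SE 0.197) and 0.94 (SE 0.195), with limma adjusted p of 0.119 and 0.123.

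DLX1, a homeobox gene of forebrain interneurons, had 1.09 and 1.46 FPKM in the controls and 3.15 and 3.35 FPKM after knockdown. HAND1, a factor of trophoblast giant cells and the heart, was at 1.70 and 1.40 against 4.12 and 3.35 FPKM. Their log2 differences were 0.91 and 0.89, and the limma adjusted p were 0.133 and 0.140. The groups did not overlap in either. FOXS1, a forkhead gene, was at 2.97 and 0.480 against 5.01 and 3.07 FPKM. Here KDM5_KD replicate 2 was only just above NC replicate 1, and the log2 fold change of 1.03 (SE 0.481, with a limma adjusted p of 0.339) was 0.32 without NC replicate 2. Apart from FOXS1, these genes kept both knockdown libraries above both controls with the values as deposited, with median-ratio scaling and after quantile normalization. The same held for HOXA4, HOXB3, HOXB4 and NKX2-3, which makes 11 members (13.9%, against 18.5% of all transcripts). All 8 members with both knockdown libraries below also stayed below under the 3 scalings (10.1%, against 15.2% of all transcripts). Median-ratio scaling divided the knockdown libraries by 1.02 and 1.06 and the controls by 0.969 and 0.957, so these members had to stay below. Quantile normalization also lowered the median of all transcripts. The decreases are therefore not read as more stable than the increases.

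At the other end, no difference reached 2-fold on the log2(FPKM + 1) scale. HOXC12, a gene at the posterior end of its cluster, had 2.46 and 0.718 FPKM in the controls and 0.300 and 0.610 FPKM after knockdown. KLF13 was at 23.4 and 18.4 against 16.6 and 11.3 FPKM, and LHX5, a forebrain gene, was at 4.04 and 2.92 against 2.27 and 2.04 FPKM. The groups did not overlap in any of the 3, but HOXC12 passed the filter on level only through NC replicate 1, so it is given as values, with no test. Its log2 difference was -0.75, and -0.25 without that library. For KLF13 and LHX5 the differences were -0.57 and -0.50, and the limma adjusted p were 0.278 and 0.319. Without KDM5_KD replicate 2 that of KLF13 was -0.31, and without NC replicate 1 that of LHX5 was -0.32.

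Of the next 5 decreases, FOXC2 and HOXD4 had both knockdown libraries below both controls. FOXC2, a factor of lymphatic vessels and mesenchyme, had 9.78 and 8.19 FPKM in the controls and 7.69 and 5.27 FPKM after knockdown, and HOXD4 was at 2.10 and 1.70 against 1.45 and 1.18 FPKM. POU2F3, a factor of tuft cells and epidermis, was at 2.25 and 1.93 against 0.613 and 2.12 FPKM, so 1 knockdown library was low and the other lay between the controls. FOXH1, the forkhead partner of SMAD proteins in nodal signalling, was at 1.97 and 1.22 against 1.28 and 0.554 FPKM, and LHX3, a pituitary factor, was at 4.61 and 3.27 against 2.66 and 3.37 FPKM. The groups of these last 3 overlapped. The 5 log2 fold changes ranged from -0.46 to -0.29, and limma adjusted p from 0.389 to 0.569. Without KDM5_KD replicate 2 those of FOXC2 and FOXH1 were -0.20 and -0.17, and without NC replicate 1 that of LHX3 was -0.10. FOXH1 passed the filter on level through the controls, since its mean in KDM5_KD was 0.918 FPKM, and its p is to be read with that limit. The remaining members with both knockdown libraries below were KLF5, FOXJ2 and FOXRED1, between -0.28 and -0.09.

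**Figure D3:**
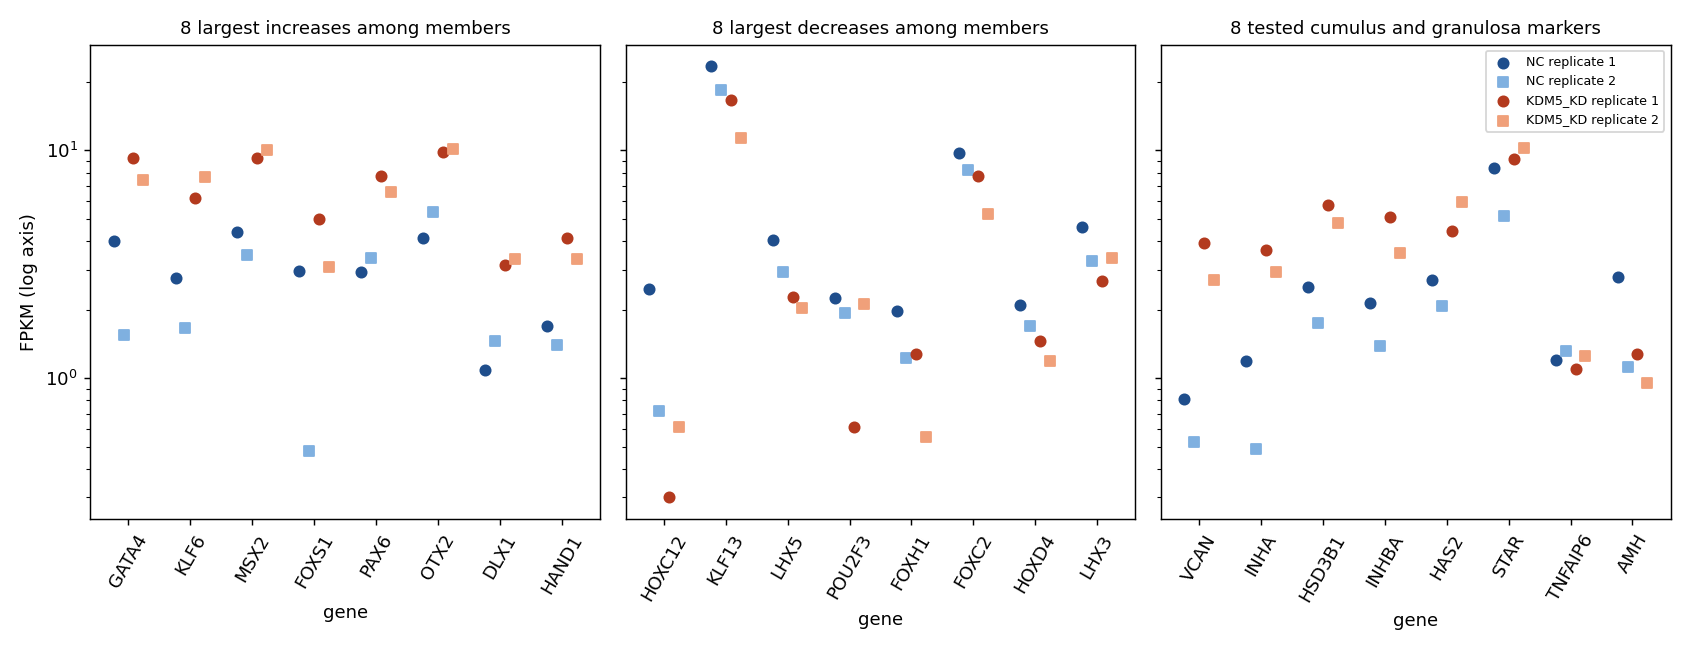
FPKM in each library (log axis) for the 8 members with the largest increases, the 8 with the largest decreases, and the 8 tested markers of cumulus and granulosa cells. Red points lie above blue points for all 8 increases and for 6 of the 8 markers.

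Markers of cumulus and granulosa cells, which surround the oocyte, were read in the same libraries. Of 12 listed, 8 were tested, and none passed the limma adjusted threshold. For 6 of the 8 (VCAN, INHA, HSD3B1, INHBA, HAS2 and STAR) both knockdown libraries lay above both controls, as for 35.1% of all transcripts. In the lowest and second bins by level, where the tested markers lie, it was 48.0% and 40.6% of all transcripts. The other two overlapped with lower knockdown means: AMH had 2.77 and 1.12 FPKM in the controls and 1.28 and 0.957 FPKM after knockdown, and the log2 fold change of TNFAIP6 was -0.05. Unadjusted, 5 of the 8 (62.5%) had a limma p under 0.05, against 17.5% of all transcripts. VCAN and INHA passed the filter on level through the knockdown libraries, since their NC means were 0.668 and 0.842 FPKM. The counts of 6 and 5 are to be read with that limit. The 12 summed to 21.9 and 13.9 FPKM in NC and to 34.7 and 32.8 FPKM in KDM5_KD. NC replicate 2 had the lowest sum, as it had the lowest GATA4 and KLF6. That library also had the lowest sum of the oocyte and cleavage embryo markers (328 FPKM) and of all transcripts (283347 FPKM). All 10 transcripts of the oocyte and embryo markers had a higher mean in KDM5_KD. For 4 of them (40%) both knockdown libraries lay above both controls. The pattern was therefore not particular to the cumulus and granulosa markers. Levels among the cumulus and granulosa markers were uneven. STAR reached 10.2 and HSD3B1 5.78 FPKM in a library, while the gonadotropin receptor genes FSHR and LHCGR reached at most 0.0443 and 0.0434 FPKM and CYP19A1, the aromatase gene, at most 0.0602 FPKM. FOXL2, a granulosa factor and a member below the level tested, had 0.660 and 0.491 FPKM in the controls and 1.07 and 1.25 FPKM after knockdown. The part of the other markers in the differences of GATA4, KLF6 and the other members was not tested.

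The control libraries also differed from each other on these genes. Replicate 1 of NC exceeded replicate 2 in 58 of the 79 tested members (73.4%), against 55.8% of all transcripts. NC replicate 2 was the lowest of the 4 libraries for 43 members (54.4%), against 37.5% of all transcripts. The 2 controls differed at least 2-fold for 10 members (12.7%), and the 2 knockdown libraries for 5 (6.33%), against 6.96% and 3.18% of all transcripts. Members have lower levels than the table as a whole, and the part of level in these shares was not tested.

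By family, the 22 HOX genes, which pattern the body axis in the order of their clusters, had 12 tested members. HOXA4 and HOXC13 were the only HOX genes with a mean of at least 10 FPKM. None of the 3 genes with paralogue numbers 5 to 8 (HOXA5, HOXB7 and HOXC5) reached a mean of 1 FPKM, while 6 of 10 with numbers 1 to 4 and 6 of 9 with numbers 9 to 13 did. Among these 22 genes detection thus did not follow one end of the clusters. HOX genes without a row in the deposited values could not be read, so this does not describe whole clusters. Overlapping and antisense transcripts are common in HOX clusters, and the protocol names no strand selection, so their reads cannot be told from those of the HOX genes.

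HOXB3 had 1.56 and 1.37 FPKM in the controls and 2.92 and 3.82 FPKM after knockdown, and its neighbour HOXB4 was at 2.20 and 2.55 against 5.71 and 3.66 FPKM. HOXA4 was at 9.58 and 11.1 against 13.7 and 15.1 FPKM. Each knockdown library was above either control in these 3 genes, and their log2 differences were 0.82, 0.73 and 0.44, and the limma adjusted p were 0.159, 0.222 and 0.261. HOXA9 was the fourth HOX gene with both knockdown libraries above, and HOXC12 and HOXD4 the ones with both below. Of the 12 tested these were 33.3% above and 16.7% below, against 35.1% and 15.6% of all transcripts. For the other 6 tested HOX genes the groups overlapped. The median log2 fold change over the 12 was 0.14.

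**Figure D4:**
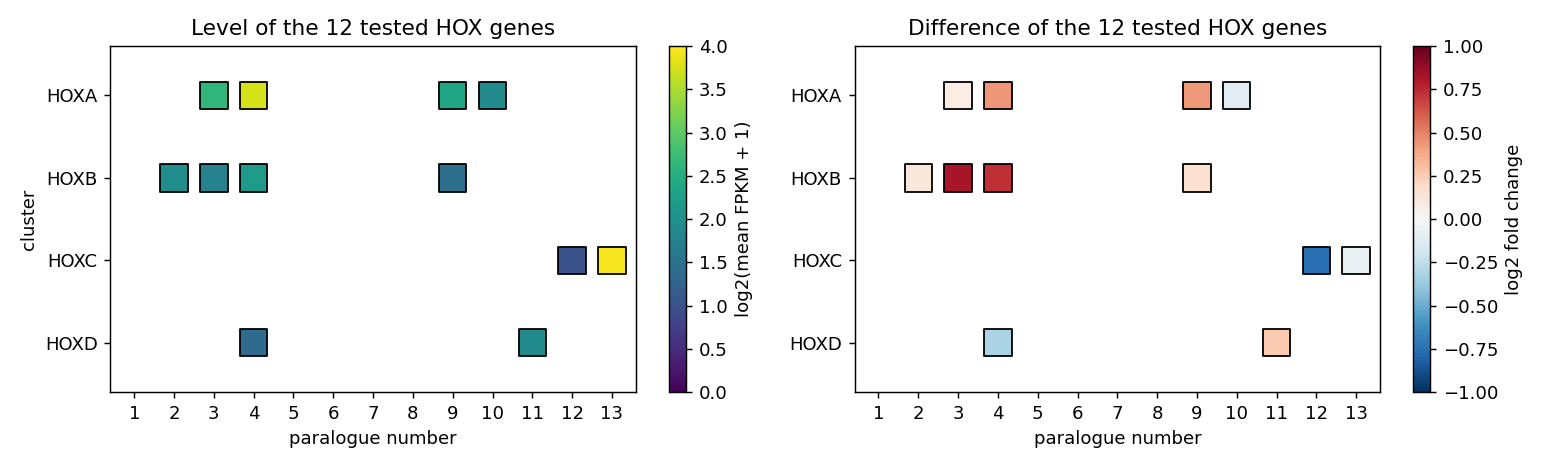
The 12 tested HOX genes by cluster and paralogue number, coloured by level as log2(mean FPKM + 1) and by log2 fold change (KDM5_KD minus NC). HOXC13 and HOXA4 are the most abundant, and HOXB3 has the largest increase.

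Among the 23 FOX-named genes 15 were tested. Both knockdown libraries lay above both controls for FOXA3 and FOXS1 and below for FOXC2, FOXJ2 and FOXRED1, and the other 10 overlapped. These were 13.3% above and 20% below, against 35.1% and 15.6% of all transcripts. FOXO3 and FOXO4, targets of insulin signalling, were at 9.67 to 21.7 and 11.6 to 18.5 FPKM over the 4 libraries with overlapping groups. Of 11 KLF genes 9 were tested, with KLF6, KLF11 and KLF12 above and KLF5 and KLF13 below. Their shares were 33.3% above and 22.2% below, against 35.1% and 15.6% of all transcripts. KLF5, which acts in the trophectoderm and inner cell mass, had 42.8 and 44.1 FPKM in the controls and 40.4 and 35.0 FPKM after knockdown, or -0.20 on the log2 scale with a limma adjusted p of 0.483. The KLF median was -0.06, so the family holds one of the largest increases without a shared direction.

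In the SOX family 4 of 9 genes were tested, SOX4, SOX14, SOX15 and SOX30, and all 4 means were higher in the knockdown, by 0.03 to 0.42 on the log2 scale. SOX4 was at 58.3 and 39.8 against 60.1 and 45.1 FPKM, so its groups overlapped, as did those of SOX14. In the T-box family 4 of 9 were tested, and TBX5, TBX6 and TBX18 lay above both controls in both knockdown libraries, while TBX20 overlapped. That is 75.0%, against 35.1% of all transcripts. In the lowest and second bins by level, where these genes lie, it was 48.0% and 40.6% of all transcripts. With 4 genes tested, no family result is read from this. T-box differences were 0.11 to 0.46, with limma adjusted p of 0.398 or more. All 4 tested PBX-named genes had a higher mean in KDM5_KD, by 0.12 to 0.54. For 3 (75.0%), PBX3 and PBXIP1 among them, both knockdown libraries lay above both controls, against 35.1% of all transcripts. After quantile normalization SOX14, TBX18 and TBX20 were lower in the knockdown, at -0.28, -0.09 and -0.13 on the log2 scale, as was 1 of the 4 PBX-named genes, and SOX14 was also lower with median-ratio scaling (-0.05).

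Of the 8 NKX genes 6 were tested. For 3 (50%), NKX2-3 and NKX3-2 among them, both knockdown libraries lay above both controls, against 35.1% of all transcripts. NKX2-3, a factor of gut mesenchyme and spleen, had 4.26 and 3.46 FPKM in the controls and 6.40 and 6.80 FPKM after knockdown, a log2 fold change of 0.65 (SE 0.196, with a limma adjusted p of 0.193). In all 6 tested NKX genes NC replicate 1 was above NC replicate 2. Of 5 tested LHX genes 2 lay above (LHX1 and LHX4) and 1 below (LHX5). These were 40% and 20%, against 35.1% and 15.6% of all transcripts, and with so few genes no family result is read. The groups overlapped in all 3 tested genes of the SIX2, SIX3 and SIX5 family and in all 4 tested POU genes.

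The 46 members below a mean of 1 FPKM had a median mean of 0.282 FPKM, and 14 were under 0.1 FPKM, so they were not tested. SOX6 had 0.188 and 0.186 FPKM in the controls and 0.481 and 0.476 FPKM after knockdown. SOX17, an endoderm factor, was at 0.866 and 0.185 against 1.29 and 0.990 FPKM. In the other direction HOXB7 was at 0.243 and 0.412 FPKM in NC and listed at 0 in both knockdown libraries. TBXT, the mesoderm gene brachyury, stayed between 0.201 and 0.386 FPKM. These genes were picked after their values were seen, and at such levels few fragments stand behind a value.

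A further list held 123 genes of the same DNA-binding families that the symbols above do not take, such as CDX2, GSC, PITX1 and the SP factors. The table had 80 of them and 52 were tested. None passed the limma adjusted threshold, 8 had an unadjusted p under 0.05 (15.4%, against 17.5% of all transcripts), and the median log2 fold change was 0.13. Both knockdown libraries lay above both controls for 15 (28.8%, against 35.1% of all transcripts) and below for 6 (11.5%, against 15.6%). PITX1, a hindlimb and pituitary factor, had 49.1 and 46.4 FPKM in the controls and 31.9 and 25.0 FPKM after knockdown (-0.74 on the log2 scale, SE 0.157, with a limma adjusted p of 0.124). ZEB2, a repressor of epithelial genes, was at 1.61 and 0.848 against 3.84 and 3.30 FPKM (1.05 on the log2 scale, SE 0.246, with a limma adjusted p of 0.139). These 2 had the smallest unadjusted p of the list.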

How the data were processed

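The authors deposited FPKM values for 14517 RefSeq transcript accessions in 4 libraries. The submitters' processing notes name Trimmomatic, HISAT2, featureCounts and Cufflinks. Their versions, the genome build and the annotation are not given in the sources used here. Per the labels' protocols, mRNA was selected on oligo(dT) beads, fragmented and amplified by PCR. Absolute depth is unknown, so no counting intervals or detection floors are given.

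Symbols came from RefSeq (ARS-UCD2.0), matched on the accession, for 14295 accessions. No sequence is shown, and no coordinates are given because the build is not named. The test was limma 3.58.1 on log2(FPKM + 1), for transcripts whose mean FPKM reached 1 (lmFit, eBayes with trend, two-sided, no covariates, all 4 libraries) in R 4.3.3. P-values were adjusted by Benjamini-Hochberg over all 8970 transcripts. Fold changes on this scale understate those of low genes. The fit was also run on simulated data, with independent normal values and variances drawn from the fitted model. Those data hold no shift shared by the transcripts of a library, so the run cannot show how the fit handles one.

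Named with every library's value were the 8 largest differences in each direction among tested members, the most abundant member of each family, the 6 most abundant of all members, and any call. Other genes were named after their values were seen. The values of some members are not reported here. Members and lists were chosen with earlier results of these data known. Tables were made in pandas 2.3.3 and numpy 2.4.6 under Python 3.11.15, plots in matplotlib 3.10.9. Alternatives were the pseudocount, the filter, 2 scalings, the variance model, the replicate block and leaving out each library.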

Additional observations from a re-analysis of the deposited data

How the results depend on the processing

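No member passed the adjusted threshold in either direction under a pseudocount of 0.1, no filter, a mean of at least 5 FPKM, median-ratio scaling, quantile normalization, eBayes without a trend, robust eBayes or the replicate block. The replicate numbers are shared by title only. Deviations of same-numbered libraries correlated at 0.229. With the replicate block 0 members were called, the lowest limma adjusted p of a member was 0.103, and 12 transcripts were called in all, against 25 without it. Leaving out one library gave 0 to 2 members called higher and 0 called lower. The 2 were GATA4 and KLF6, without NC replicate 1. In these fits the lone library of a group is assumed to vary like the other group.

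The 4 members 2-fold higher became 9 with a pseudocount of 0.1. They were 2 with a mean of at least 5 FPKM, 2 after quantile normalization, and 4 to 6 without one library. The share of all transcripts moved too, from 4.52% in the main fit to 7.97% with a pseudocount of 0.1. It was 3.57% with a mean of at least 5 FPKM, 2.69% after quantile normalization, and 2.79% to 7.13% without one library. The 2-fold lower count went from 0 to 1 with a pseudocount of 0.1 and after quantile normalization, and was 0 to 1 without one library. Members above both controls were 46 with no filter (125 members) and 12 with at least 5 FPKM (37 members). The shares of all transcripts in these settings were 33.4% and 29.4%. Members above were 19 with median-ratio scaling (24.1%, against 25.9% of all transcripts) and 11 after quantile normalization (13.9%, against 20.7%). They were 34 to 54 of 79 without one library, where 3 libraries make the criterion looser. The share of all transcripts was then 44.96% to 50.02%. Members below were 4 with at least 5 FPKM, where the share of all transcripts was 18.7%. They were 14 with median-ratio scaling (17.7%, against 25.4% of all transcripts) and 18 after quantile normalization (22.8%, against 28.3%). Without one library they were 9 to 29 of 79, and the share of all transcripts was 25.4% to 28.9%. The counts above and below both controls, and leaving out FOXRED1, FOXRED2 and PBXIP1, were chosen after seeing the data. Leaving out these 3 genes moved no count by more than 1.

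The median of members was -0.028 after quantile normalization, against -0.05 for all transcripts. Quantile normalization also reversed DLX2 (-0.091), LHX2 (-0.037) and MEIS1 (-0.25). With one library left out at a time, the log2 fold change crossed 0 for 13 named genes. The ranges were -0.050 to 0.41 for DLX2, -0.48 to 0.098 for FOXP4, -0.17 to 0.018 for HOXC13, -0.30 to 0.17 for KLF10 and -0.23 to 0.022 for KLF3. They were -0.21 to 0.47 for LHX2, -0.016 to 0.18 for MEIS1, -0.64 to 0.18 for NKX2-8, -0.41 to 0.27 for OTX1 and -0.22 to 0.16 for PAX9. For POU2F3, POU3F1 and SIX5 they were -0.93 to 0.017, -0.64 to 0.14 and -0.47 to 0.29. The direction of these 13 genes is not determined, and the cause was not tested. In 363 of 383 comparisons of the 33 named genes the direction was that reported. The filter, the variance model and the replicate block cannot change a log2 fold change here, so their comparisons agree by construction. The total is therefore not a measure of stability. Without read counts no limit of detection is given for the lowest genes.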
